A study of Mus musculus with 9 samples.

Results

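Mitochondrial ribosomal protein genes are nuclear genes whose products, together with the ribosomal RNAs of the mitochondrial genome, build the ribosome inside mitochondria. They were taken by name: every protein-coding gene whose GENCODE M21 symbol is Mrpl or Mrps followed by a number, with or without 1 letter. Of 49315 gene identifiers in the table, 78 met this rule, 49 named for the large subunit (Mrpl) and 29 for the small subunit (Mrps). All 78 passed the filter on low counts and were tested. They lie on 17 chromosomes of the mouse genome GRCm38, with 11 of them on chromosome 11.

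The RNA came from C57BL6 mouse pancreatic stellate cells, the fibroblast-like matrix-producing cells of the pancreas, and was read as poly-A libraries. The cells had grown out spontaneously as an immortal culture, carried Cas9 and 1 guide RNA from a lentivirus, and were used as a polyclonal population after puromycin selection at 2 ug per mL, so a group is not 1 clone and can hold cells with different edits. R26 normoxia cells carried the control guide R26 sg1 and were kept at 20% oxygen for 48 h. R26 hypoxia cells carried the same guide and were kept at 0.5% oxygen for 48 h. HIF1a-ko hypoxia cells carried the guide HIF1a sg2 and were kept at 0.5% oxygen for 48 h. Each group had 3 libraries. The labels do not say whether these were separate cultures, so each p-value measures only the spread between libraries. Cells with the Hif1a guide at 20% oxygen are not part of the comparisons.

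The mitochondrial ribosome makes only the few proteins that the mitochondrial genome encodes, all of them subunits of the respiratory chain or of ATP synthase. Its small subunit binds and decodes the messenger RNA, and its large subunit joins the amino acids and holds the exit tunnel at the inner membrane. Many of its proteins have a counterpart in bacterial ribosomes, and the rest were added in the mitochondrial lineage. HIF-1, of which Hif1a encodes the oxygen-regulated subunit, is known as a transcription factor that lowers mitochondrial oxygen use in low oxygen.

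Library totals ran from 43837809 to 107840223 counts. In each group 1 library was deeper than the other 2. These were library 3 of both R26 groups and library 1 of HIF1a-ko hypoxia, and they stood apart from the 6 shallower ones within their groups. The Hif1a transcript itself was lower in HIF1a-ko hypoxia than in R26 hypoxia (log2 fold change -0.60 ± 0.09, SE; adjusted p = 0.000319), a weak check of the labels, because an edit in a coding exon can leave the transcript level as it was. All 11 fibroblast and stellate cell markers were counted. Their summed level was 31696.5 to 33623.3 CPM (counts scaled to a common library size with TMM factors) in R26 normoxia, 34750.6 to 36831.3 CPM in R26 hypoxia and 22121.5 to 22379 CPM in HIF1a-ko hypoxia. The summed levels of other markers were 14.1 to 107.7 CPM for 7 epithelial genes, 7.53 to 42.7 CPM for 7 leukocyte genes, 9.31 to 23 CPM for 6 endothelial genes and 4.51 to 14.9 CPM for 8 acinar and islet genes. Of these, Ins1 and Ins2 were at 0 in all 9 libraries, while Epcam was at 3.35 to 5.77 CPM in the 6 shallower libraries and at 0.00945 to 0.0113 CPM in the 3 deeper ones. The summed fibroblast markers were lowest in the group in which the ribosomal protein genes were highest, and their part in the result was not tested. The highest of these markers was Fn1 (15870 CPM), and they did not all move together. In HIF1a-ko hypoxia against R26 hypoxia, 6 of the 11 fell and 1 rose at an edgeR adjusted p under 0.05. Of all genes tested, 24.1% fell and 22.6% rose. In bulk RNA, fewer cells of a type and less RNA per cell cannot be told apart.

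The genes as a group were lowest in R26 hypoxia and highest in HIF1a-ko hypoxia. Added up, the 49 large subunit genes reached 1230, 1268 and 1067 CPM in the normoxia libraries 1 to 3, 1182, 1128 and 955 CPM in the R26 hypoxia libraries, and 1303, 1364 and 1369 CPM with the Hif1a guide. The 29 small subunit genes stood at 628, 653 and 571 CPM, at 607, 567 and 530 CPM, and at 666, 657 and 687 CPM in the same order. All 3 HIF1a-ko hypoxia libraries lay above all 6 R26 libraries for both subunits, while the 2 groups of R26 libraries overlapped. The means were 1188 ± 107 (SD, n = 3), 1088 ± 118 and 1346 ± 36.8 CPM for the large subunit and 617 ± 42.5, 568 ± 38.2 and 670.0 ± 15.4 CPM for the small subunit. No test was made on these sums, because a few well counted genes weigh most in them. The plot of summed levels shows the gap below HIF1a-ko hypoxia, and that the deeper library of both R26 groups was the lowest of its 3.

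**Figure D1:**
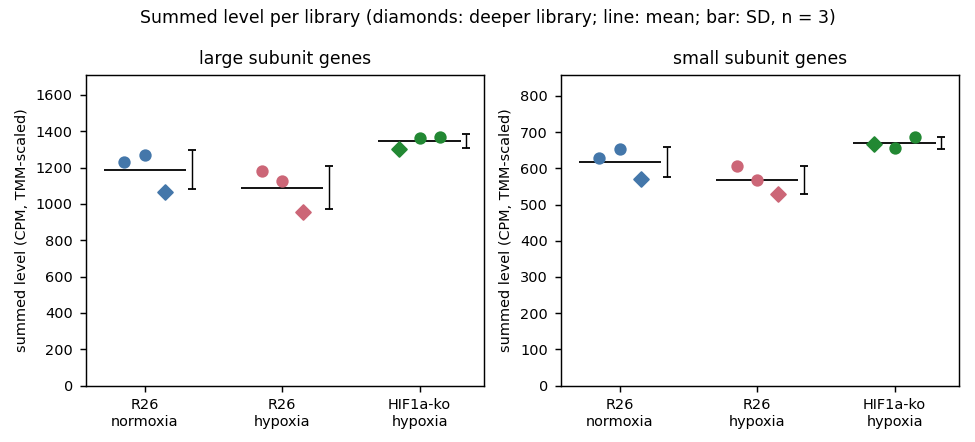
Summed level of the large (left) and small (right) subunit genes in each library, in TMM-scaled CPM, by group. Points are libraries, diamonds the deeper library of each group, lines the mean and bars the SD of 3 libraries; the HIF1a-ko hypoxia libraries run from 1303 to 1369 CPM for the large subunit and lie above all R26 libraries.

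Single genes were moderately expressed. Per kilobase of transcript, the large subunit genes ran from 1.09 to 58 CPM per kb in R26 normoxia with a median of 17.1, and the small subunit genes from 2.58 to 44.9 CPM per kb with a median of 10.5. Mrpl52 (58 ± 10.6 CPM per kb, SD, n = 3) and Mrpl33 (56.2 ± 6.18) led the large subunit and did not differ beyond their spread, followed by Mrpl14 (43.8 ± 10.2). Mrps6 (44.9 ± 5.1), Mrps34 (41.1 ± 2.29) and Mrps18a (37.4 ± 5.06) led the small subunit, again within the spread of their neighbours. Mrpl53 was the lowest large subunit gene at 1.09 ± 0.0835 CPM per kb and Mrps25 the lowest small subunit gene at 2.58 ± 0.367. These per-length levels rest on the length of the longest principal transcript, which for Mrps25 (6073 bp) is long. For Mrpl33 (478 bp) and Mrpl52 (418 bp) it is short, while all annotated exons of these genes cover 7326 and 1109 bp. The order of genes thus depends on the length chosen. For 24 of the 78 genes at least 10% of the exon sequence overlaps another gene or at least 10% of 50-base stretches recur elsewhere. The strand setting of the counting is not known, so the counts of these genes are uncertain: Mrpl10, Mrpl12, Mrpl14, Mrpl18, Mrpl19, Mrpl22, Mrpl23, Mrpl24, Mrpl27, Mrpl41, Mrpl43, Mrpl46, Mrpl47, Mrpl53, Mrps6, Mrps7, Mrps18b, Mrps18c, Mrps24, Mrps25, Mrps27, Mrps33, Mrps34 and Mrps36.

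In control cells, a minority of these genes were lower in low oxygen. Of the large subunit 7 of 49 fell and of the small subunit 5 of 29 fell, and none rose, by edgeR's quasi-likelihood test with all 9 libraries in 1 fit and an adjusted p (Benjamini-Hochberg over 18211 genes) under 0.05. Of all genes tested, 12.7% fell and 13.1% rose, so the share that fell was close to the background. At an unadjusted p under 0.05, 1 large and 1 small subunit gene were higher and 14 and 11 were lower. DESeq2 called 0 large subunit genes higher and 1 small subunit gene, Mrps6. The median log2 fold change was -0.15 over the large and -0.18 over the small subunit, against -0.01 over all genes tested. The 3 hypoxia values lay entirely below the 3 normoxia values for 8 large and 10 small subunit genes, and entirely above for 0 and 1, where 19.1% and 19.3% of all genes did so.

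The drop was small in every gene that passed. Mrpl16, a core protein of the large subunit with a bacterial counterpart (ENSMUSG00000024683, chromosome 19, 11770391 to 11774960, plus strand), had 22, 24.6 and 20.7 CPM in R26 normoxia 1 to 3 and 17.5, 16.7 and 15.2 CPM in R26 hypoxia 1 to 3. All 3 hypoxia libraries lay below all 3 normoxia libraries, and the log2 fold change was -0.45 ± 0.09 (SE, adjusted p = 0.00579). Mrpl21 was at 28.7, 30.0 and 21.4 CPM in normoxia and 20.6, 21.6 and 18.4 CPM in hypoxia (log2 fold change -0.40 ± 0.12, edgeR adjusted p = 0.0411), with the deeper normoxia library just below hypoxia 2. Mrpl17 was at 35.1, 34.5 and 27.6 CPM against 28.3, 24.4 and 22 CPM, again with 1 normoxia library within the hypoxia range (log2 fold change -0.38 ± 0.11, adjusted p = 0.0309). Mrpl22, which lines the exit tunnel, fell by 0.36 on the log2 scale. Mrpl1, Mrpl3 and Mrpl12 had the smallest drops among the large subunit genes that passed, -0.34, -0.25 and -0.23, and all of these have bacterial counterparts. Mrpl1 was at 11.5, 12.3 and 13 CPM in normoxia and 8.83, 9.55 and 10.6 CPM in hypoxia, and Mrpl3 at 49.1, 45.5 and 48.3 CPM and 42.2, 39.1 and 39 CPM, with no overlap in either. Mrpl41 had the lowest value of the large subunit, -0.49 ± 0.26 on the log2 scale, and was not called (edgeR adjusted p = 0.207). A block for replicate number, a term for depth class and the shallower libraries alone each gave a lower call (adjusted p = 0.00286, 0.00388 and 0.00168).

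Among small subunit genes, Mrps22 (ENSMUSG00000032459, chromosome 9, 98588730 to 98601660, minus strand), a mitochondria-specific protein of the small subunit, had 12.2, 12.9 and 12.1 CPM in normoxia and 9.72, 9.55 and 9.93 CPM in hypoxia. The groups were far apart for their spread (log2 fold change -0.35 ± 0.06, SE, adjusted p = 0.00326). Mrps2, which has a bacterial counterpart (ENSMUSG00000035772, chromosome 2, 28468066 to 28471178, plus strand), was at 24.7, 25 and 24.9 CPM against 19.6, 20.3 and 20.5 CPM with a wide gap between the groups (-0.31 ± 0.05, edgeR adjusted p = 0.00331). Mrps31 was at 14.3, 12.9 and 12.4 CPM against 10.3, 11.9 and 11.1 CPM (-0.24 ± 0.08, adjusted p = 0.0475). The normoxia and hypoxia values of Mrps31 did not overlap, nor did those of the last 2 genes that fell, both with bacterial counterparts. Mrps7 went from 30.5, 32.9 and 29.3 CPM to 27.5, 26.5 and 26.1 CPM (-0.21 ± 0.06) and Mrps10 from 33.7, 34.2 and 32.3 CPM to 31, 29.9 and 28.4 CPM (-0.17 ± 0.05). Mrpl3, Mrpl16, Mrps2 and Mrps22 were called in this comparison in all 19 alternative fits, and the other 8 called genes lost the call in at least 1 of them.

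These counts depended on how the depth of the libraries was handled. When the replicate number entered a fit of only the R26 libraries as a block, 18 large and 14 small subunit genes fell and 2 and 1 rose, but of all genes 20.1% fell and 22.5% rose in that fit. The numbers met the rule for pairs, though libraries 1 and 2 correlated as well across numbers as within them. With the depth class as a term, 18 and 15 fell, and Mrpl45 and Mrps6 rose (19.9% and 19.1% of all genes). In the 6 shallower libraries alone, 14 and 9 fell, and Mrpl45 and Mrpl34 rose (14.6% and 15.5% of all genes). Mrpl45, through which the large subunit meets the inner membrane, was at 32, 31.4 and 39.5 CPM in normoxia and 41, 37 and 46.2 CPM in hypoxia, with the deeper library the highest of each group. Leaving out 1 library gave 2 to 9 large and 2 to 4 small subunit genes that fell, where 8.58% to 11.5% of all genes fell. The large subunit count was 2 without R26 normoxia 2, 3 without R26 hypoxia 2, and 4 without R26 normoxia 1, R26 hypoxia 3 or HIF1a-ko hypoxia 3, and the small subunit count was 2 without R26 normoxia 1, R26 normoxia 2, R26 hypoxia 3 or HIF1a-ko hypoxia 3. Without R26 hypoxia 3 the median log2 fold changes were -0.06 and -0.11. HIF1a-ko hypoxia 3 is outside this contrast and acts on it only through the shared fit.

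With the Hif1a guide, low-oxygen cells had more of many of these transcripts. Against R26 hypoxia, 27 of 49 large and 14 of 29 small subunit genes rose and none fell, while 22.6% of all genes tested rose and 24.1% fell. The same R26 hypoxia libraries stand with opposite sign in hypoxia against normoxia. A low value in them counts as a fall there and as a rise here. For any gene or list, a fall in hypoxia and a rise with the guide are thus not independent results. The median log2 fold change was 0.36 over the large subunit (range -0.27 to 1.10) and 0.30 over the small subunit (range -0.40 to 0.67), against -0.01 over all genes tested. At an unadjusted p under 0.05 edgeR gave 29 large and 14 small subunit genes higher and 2 and 0 lower, and DESeq2 called 1 large subunit gene, Mrpl24, lower. All 3 HIF1a-ko values lay above all 3 R26 hypoxia values for 30 large and 15 small subunit genes and below for none, where 26.4% and 28.1% of all genes did so. Of the 41 genes that rose, 26 were called in all 19 alternative fits, 18 of the large and 8 of the small subunit. In the plot of fold changes by gene, the filled green points of this comparison lie to the right of 0 in both subunits, and the red points of hypoxia against normoxia lie mostly to the left.

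**Figure D2:**
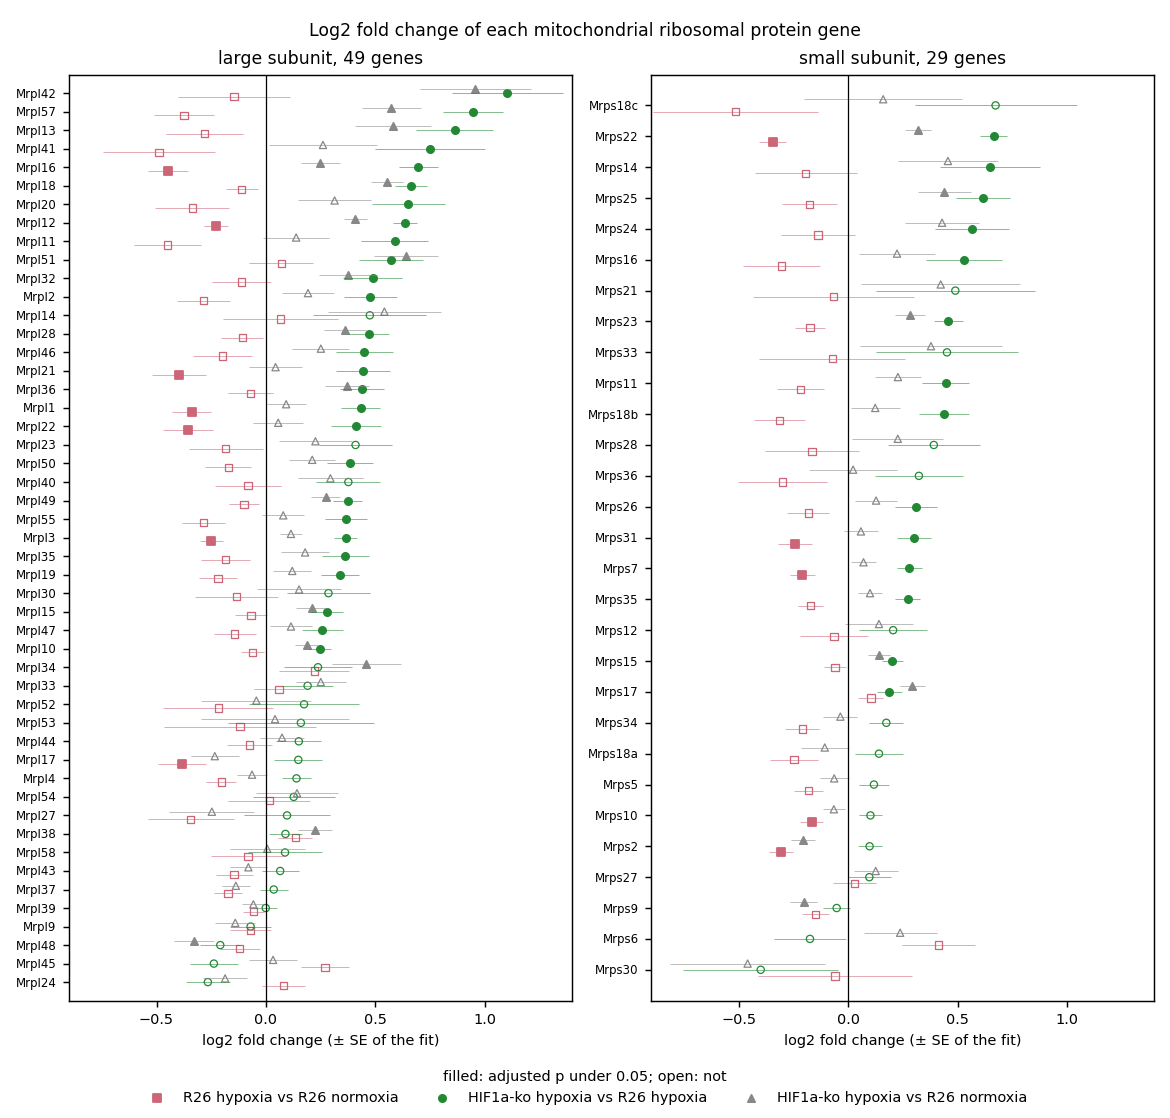
Log2 fold change of each gene with the standard error of the fit, for the large (left) and small (right) subunit, ordered by HIF1a-ko hypoxia against R26 hypoxia. Squares, circles and triangles are the 3 comparisons, and filled points have an adjusted p under 0.05; 27 large and 14 small subunit circles are filled, all to the right of 0.

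The largest rise was in Mrpl42 (ENSMUSG00000062981, chromosome 10, 95480805 to 95501940, minus strand), a large subunit protein without a bacterial counterpart. It had 31.3, 32.2 and 17.9 CPM in R26 normoxia 1 to 3, 29.9, 27.1 and 16.7 CPM in R26 hypoxia 1 to 3 and 45.3, 55 and 56.9 CPM in HIF1a-ko hypoxia 1 to 3. The HIF1a-ko libraries were all above the R26 libraries, and the deeper library was the lowest in each group. The log2 fold change against R26 hypoxia was 1.10 ± 0.25 (SE, adjusted p = 0.00565), a 2.15-fold difference, and 0.98 in the 6 shallower libraries alone.

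Mrpl57 (ENSMUSG00000021967, chromosome 14, 57826234 to 57829296, plus strand), another mitochondria-specific large subunit protein, had 15, 15.5 and 12.1 CPM, 12.9, 11.2 and 8.94 CPM and 21.5, 21.2 and 20.3 CPM in the same order. Its HIF1a-ko values were close together and above all others (0.95 ± 0.14 against R26 hypoxia, edgeR adjusted p = 0.000324). Mrpl13 (ENSMUSG00000022370, chromosome 15, 55534094 to 55557748, minus strand), which has a bacterial counterpart, had 45.6, 46.5 and 31.1 CPM, 38.5, 36.7 and 26.1 CPM and 57.1, 63 and 63.5 CPM. Here too the groups were apart (0.86 ± 0.18, edgeR adjusted p = 0.00277) and the deeper library was the lowest of each group.

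Mrps22 was also the small subunit gene with the highest rise among those called, from 9.72, 9.55 and 9.93 CPM in R26 hypoxia to 15.1, 15.1 and 16.1 CPM in HIF1a-ko hypoxia. Its log2 fold change was 0.67 ± 0.06 (edgeR adjusted p = 1.77e-05), with deeper and shallower libraries at the same level. Mrps14 (ENSMUSG00000058267, chromosome 1, 160195215 to 160202170, plus strand), a protein with a bacterial counterpart, was at 16.3, 13.3 and 8.75 CPM in R26 hypoxia and 18.7, 20.7 and 20.1 CPM in HIF1a-ko hypoxia. The values did not overlap, but they were spread (0.65 ± 0.23, edgeR adjusted p = 0.0412), and this call held in 12 of 20 fits. Mrps25 (ENSMUSG00000014551, chromosome 6, 92169525 to 92184033, minus strand) was at 15.3, 13.9 and 12.4 CPM against 19.4, 21 and 23.3 CPM (0.62 ± 0.12, adjusted p = 0.00242). For Mrps25 69.8% of the exon sequence overlaps other genes.

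At the other end of the genes that rose, Mrpl10, which with Mrpl12 belongs to the stalk that receives translation factors, was at 39.8, 38.1 and 39.1 CPM in R26 hypoxia and 46.8, 45.3 and 46.9 CPM in HIF1a-ko hypoxia (0.25 ± 0.05, edgeR adjusted p = 0.0031). Mrpl47 was at 9.79, 8.61 and 8.53 CPM against 9.74, 10.4 and 12.1 CPM (0.26 ± 0.09, edgeR adjusted p = 0.0497), a call that held in 8 of 20 fits, and Mrpl15 was at 23.8, 21.9 and 20.6 CPM against 26.2, 28.1 and 26.1 CPM (0.28 ± 0.07). These rises were small but, for Mrpl10 and Mrpl15, larger than the spread within groups. In the small subunit Mrps17, Mrps15 and Mrps35 rose by the least, by 0.19, 0.20 and 0.27 on the log2 scale. Mrps17 was at 37, 35.3 and 34.6 CPM in R26 hypoxia and 40.1, 40.9 and 40.7 CPM in HIF1a-ko hypoxia. Mrps15 was at 29.7, 28.5 and 27.9 CPM and 33.9, 32.5 and 32.5 CPM, and Mrps35 at 15.9, 16.9 and 15.5 CPM and 18.8, 19.4 and 20.0 CPM. The groups did not overlap in any of these 3. Genes that were not called had log2 fold changes between -0.40 (Mrps30) and 0.67 (Mrps18c), and Mrpl24 (-0.27), Mrpl45 (-0.24), Mrpl48 (-0.21) and Mrpl9 (-0.07) were among those below 0. In the 6 shallower libraries alone Mrpl24, Mrpl45 and Mrpl48 were called lower.

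Some further members are given by the place of their product in the ribosome, chosen with their values known. In the stalk and its base, where translation factors bind, Mrpl11 had 25.2, 27.4 and 18.7 CPM in R26 normoxia, 19.2, 19 and 14.1 CPM in R26 hypoxia and 25.5, 26.4 and 26.1 CPM in HIF1a-ko hypoxia. It rose with the guide by 0.59 on the log2 scale, beside 0.64 for Mrpl12 and 0.25 for Mrpl10. At the decoding site of the small subunit, Mrps12 was at 13.2, 15.1 and 10.4 CPM, 14.7, 12.1 and 10.2 CPM and 13.4, 14.5 and 14.4 CPM, with the groups overlapping, and was not called (0.21 ± 0.15 against R26 hypoxia). Mrpl58, a peptidyl-tRNA hydrolase built into the large subunit, was at 21.6, 22.9 and 15.6 CPM, 21.2, 20.5 and 15.2 CPM and 17.4, 21.9 and 20.8 CPM and was called in no comparison. Mrpl45 was at 38.2, 33 and 34.1 CPM in HIF1a-ko hypoxia, within its range in R26 normoxia. Mrpl41 was at 10.0, 8.42 and 5.89 CPM in R26 hypoxia and 11.6, 14.1 and 14.7 CPM in HIF1a-ko hypoxia and rose by 0.75 on the log2 scale.

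The other large subunit genes that rose with the guide were Mrpl16 (0.70), Mrpl18 (0.66), Mrpl20 (0.65), Mrpl51 (0.57), Mrpl32, Mrpl2, Mrpl28, Mrpl46, Mrpl21, Mrpl36, Mrpl1, Mrpl22, Mrpl50, Mrpl49, Mrpl55, Mrpl3, Mrpl35 and Mrpl19 (0.34), in this order of their log2 fold change. In the small subunit they were Mrps24 (0.57), Mrps16, Mrps23, Mrps11, Mrps18b, Mrps26, Mrps31 and Mrps7 (0.28). Mrpl14 (0.48 ± 0.26), Mrps21 (0.49 ± 0.36) and Mrps33 (0.45 ± 0.33) had values as large as these and were not called. They were called higher with depth class as a term (edgeR adjusted p = 0.00131, 0.00289 and 0.000955) and in the shallower libraries (0.00528, 0.0089 and 0.0079).

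The median rise was smaller without the deeper libraries. In the 6 shallower libraries the medians were 0.28 and 0.20, and 29 large and 16 small subunit genes rose and 3 and 0 fell, where 26.2% of all genes rose and 25.6% fell. With the depth class as a term, 34 and 20 rose and 3 and 1 fell, where 29% of all genes rose and 29.5% fell. Without R26 hypoxia 3 the medians were 0.25 and 0.18 and 2 large subunit genes were called lower, and without R26 normoxia 3 there was 1 such gene. Of all genes, 22.2% and 23.2% fell in these fits. As simple ratios of means of HIF1a-ko hypoxia over R26 hypoxia, the 2 shallower libraries of each group gave median log2 ratios of 0.28 over the large and 0.19 over the small subunit. The deeper libraries, 1 against 1, gave 0.53 and 0.39, so all genes in the latter rest on the same pair of libraries. These ratios were not taken over all genes.

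**Figure D3:**
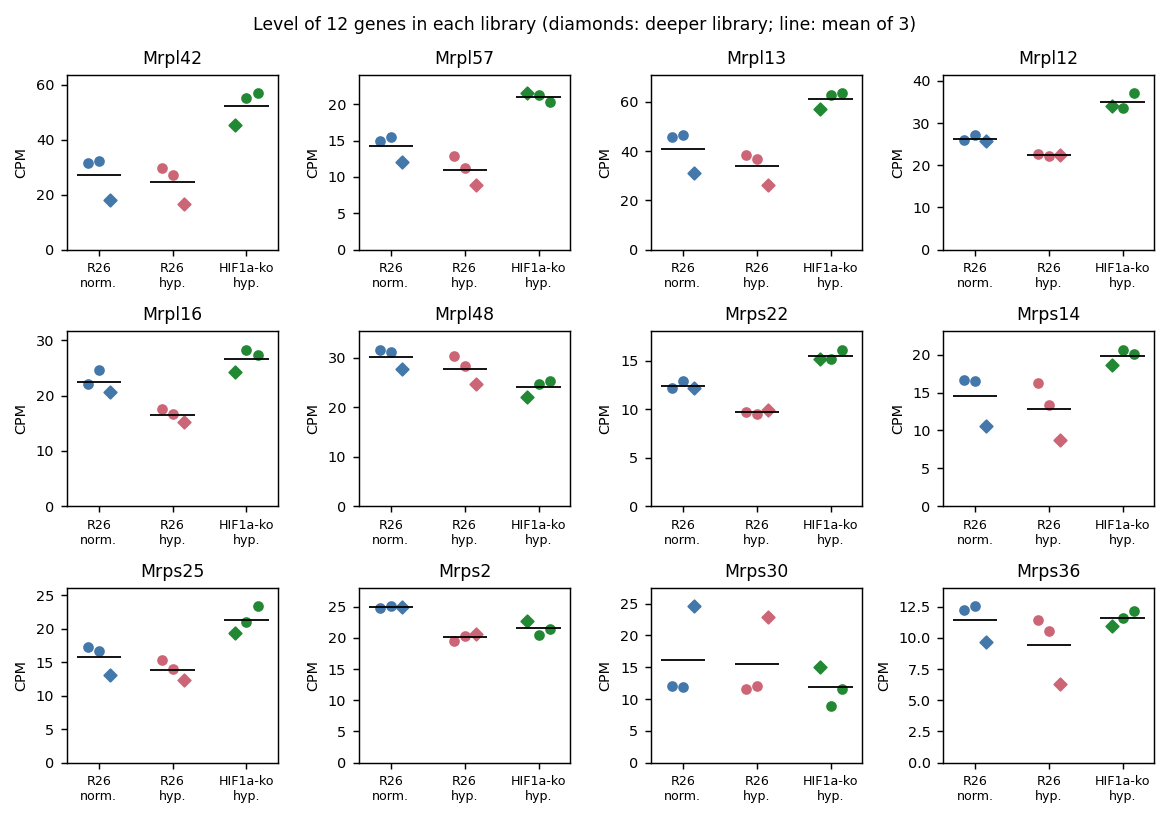
Level of 12 genes in each library, in TMM-scaled CPM, by group. Points are libraries, diamonds the deeper library of each group and lines the mean of 3; Mrpl42, Mrpl12 and Mrps22 lie highest in HIF1a-ko hypoxia, Mrpl48 lies lowest there, and Mrps30 follows the depth of the library.

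Because many of these genes rose together, the sequence upstream of their starts was described. The RefSeq table for GRCm38.p6 gives windows of 250 bases before to 50 after a start, and 75 such promoters of 69 of the 78 genes were matched by symbol. Windows were searched on both strands for exact matches to CCGGAAG, bound by ETS factors such as Gabpa, AAGATGGC, bound by Yy1, CGCATGCG, the core of the site of Nrf1, CACGTG, the E-box bound by Myc, and ACGTG, the core of the HIF site, which every E-box also contains. The ETS word stood in 34.7% of the 75 promoters, against 15.8% of promoters of tested protein-coding genes and 8.86% of all promoters in the table. The Yy1 word stood in 16%, against 4% and 2.75%, and the Nrf1 core in 9.33%, against 3.45% and 1.87%. The E-box stood in 9.33% (9.38% and 7.15%) and the HIF core in 25.3% (24.1% and 19.6%). The subunits differed in these shares, with no test: the large and the small subunit had the ETS word in 31.2% and 40.7%, the Yy1 word in 12.5% and 22.2%, the Nrf1 core in 12.5% and 3.7%, the E-box in 12.5% and 3.7%, and the HIF core in 33.3% and 11.1% of 48 and 27 promoters. These are matches to letters and not binding sites.

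For comparison, 5 stretches of 120 bases directly upstream of the annotated exons are shown, 5′ to 3′ on the strand of the gene, with the matched words in capitals. Mrpl42 (chr10:95501950-95502069, minus strand) had the largest rise with the Hif1a guide and shows none of the words in this stretch, although its whole window holds the Yy1 word. Mrps22 (chr9:98601680-98601799, minus strand) rose most among called small subunit genes and holds the ETS word. Mrpl22 (chr11:58171541-58171660, plus strand) rose and holds the ETS word and the Nrf1 core. Mrpl20 (chr4:155802758-155802877, plus strand) rose and holds the E-box. Mrpl9 (chr3:94443198-94443317, plus strand) was not called and holds the Nrf1 core.
Mrpl42: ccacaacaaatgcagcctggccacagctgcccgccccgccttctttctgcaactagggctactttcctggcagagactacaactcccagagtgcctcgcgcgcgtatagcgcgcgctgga
Mrps22: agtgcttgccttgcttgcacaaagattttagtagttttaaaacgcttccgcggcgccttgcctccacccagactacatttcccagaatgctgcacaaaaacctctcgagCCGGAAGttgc
Mrpl22: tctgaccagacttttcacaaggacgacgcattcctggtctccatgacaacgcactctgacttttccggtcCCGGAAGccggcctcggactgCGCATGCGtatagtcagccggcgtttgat
Mrpl20: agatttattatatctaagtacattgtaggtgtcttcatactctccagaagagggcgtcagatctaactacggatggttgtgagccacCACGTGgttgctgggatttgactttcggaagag
Mrpl9: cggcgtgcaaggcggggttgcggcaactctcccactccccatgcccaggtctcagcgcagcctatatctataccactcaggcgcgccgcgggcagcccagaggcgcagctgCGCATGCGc

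Genes with and without each word were counted by their response to the guide. Of 26 genes with the ETS word in a window, 11 rose in HIF1a-ko hypoxia against R26 hypoxia (median log2 fold change 0.34), and of 43 without it 26 rose (0.37). Of 12 with the Yy1 word 8 rose (0.37), and of 57 without it 29 (0.36). Of 7 with the Nrf1 core 4 rose (0.25), of 5 with the E-box 3 (0.48), and of 16 with the HIF core 8 (0.37). Of all genes tested, 22.6% rose in this comparison. No test was made on these counts.

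Many of the genes have an annotated start close to that of a neighbour on the other strand, and whether they share a promoter was not tested. For 33 of the 78 (42.3%), 24 of the large and 9 of the small subunit, a protein-coding gene on the other strand starts within 1000 bp of their own start so that the 2 are read away from each other or start within each other, where 15% of tested protein-coding genes had such a neighbour. Mrpl46 and Mrps11 on chromosome 7 are each other's partner. Mrpl46 was at 7.22, 6.29 and 5.35 CPM in R26 hypoxia and 8, 8.27 and 9.26 CPM in HIF1a-ko hypoxia, and Mrps11 at 10.1, 9.31 and 8.67 CPM and 12.6, 12 and 13.5 CPM. Both rose, by 0.45 and 0.45 on the log2 scale, but their exons overlap by 173 bp and reads there cannot be assigned without strand. Of the 33 partners, which include Mrpl46 and Mrps11 themselves, 10 rose and 10 fell in this comparison with a median log2 fold change of 0.14. Of all genes tested, 22.6% rose and 24.1% fell. Beside some genes with a large rise the partner rose more: Ska3, next to Mrpl57, by 2.03, Ncapd2, next to Mrpl51, by 1.48 and Mtbp, next to Mrpl13, by 1.45 on the log2 scale. The exons of Mrpl13 and Mtbp overlap by 330 bp. Beside others it did not: Pnpla7, next to Mrpl41, fell by 0.32, and Tcp1, next to Mrpl18, was not called (0.15). Eme1, next to Mrpl27, which was not called, rose by 2.27, and Klc4, next to Mrpl2, which rose, fell by 0.67.

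Against R26 normoxia, cells with the Hif1a guide in low oxygen still had more of some of these transcripts. This comparison shares its libraries with the other 2, so its values stand beside theirs and add no independent evidence. Of the large subunit 15 of 49 rose and 1 fell, and of the small subunit 5 of 29 rose and 2 fell, where 19.9% of all genes rose and 22.1% fell. The share of small subunit genes that rose was near that background. The median log2 fold changes were 0.18 and 0.14, against -0.01 over all genes tested. Groups did not overlap for 21 large and 9 small subunit genes that were higher and for 1 and 2 that were lower, where 25.5% and 27.8% of all genes did so. The large subunit count of genes that rose was 9 without R26 normoxia 3 or HIF1a-ko hypoxia 2, 10 without R26 normoxia 1 or HIF1a-ko hypoxia 3, 24 with the depth class as a term and 18 in the shallower libraries. The small subunit count was 11 with that term and 8 in the shallower libraries. Of all genes, 26.1% rose with that term and 23.8% in the shallower libraries. Without R26 normoxia 3, HIF1a-ko hypoxia 2, R26 normoxia 1 or HIF1a-ko hypoxia 3 in turn, 18.9%, 17.5%, 16.7% and 18.6% of all genes rose. The large subunit counts of 9 and 10 of 49 were near these shares.

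Mrpl42 was again the highest, 0.96 ± 0.25 above R26 normoxia on the log2 scale (edgeR adjusted p = 0.0133). Mrpl51, a mitochondria-specific large subunit protein, had 26.3, 27 and 20.8 CPM in R26 normoxia, 30.8, 26.5 and 20.6 CPM in R26 hypoxia and 36, 39.1 and 40.2 CPM in HIF1a-ko hypoxia. Its R26 groups overlapped and the HIF1a-ko libraries lay above both (0.64 ± 0.15 against normoxia, adjusted p = 0.00596). Mrpl13 followed (0.58 ± 0.17, edgeR adjusted p = 0.0234). Among called small subunit genes the highest were Mrps25 (0.44 ± 0.12), Mrps22 (0.32 ± 0.06) and Mrps17 (0.29 ± 0.06), and Mrps17, which was not called in hypoxia against normoxia, was at 33.7, 35 and 30.8 CPM in normoxia and 40.1, 40.9 and 40.7 CPM in HIF1a-ko hypoxia. Mrpl10 (0.19), Mrpl15 (0.21) and Mrps15 (0.14) rose by the least. Their normoxia values were 38.1, 42.2 and 41.9 CPM, 23.8, 24.2 and 21.5 CPM and 29.1, 31 and 29.6 CPM.

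Against the majority, 3 genes fell. Mrpl48 (ENSMUSG00000030706, chromosome 7, 100545751 to 100608301, minus strand), a mitochondria-specific large subunit protein, had 31.6, 31.2 and 27.6 CPM in R26 normoxia, 30.3, 28.3 and 24.7 CPM in R26 hypoxia and 22.1, 24.7 and 25.2 CPM in HIF1a-ko hypoxia. All HIF1a-ko libraries lay below all normoxia libraries (-0.33 ± 0.09, edgeR adjusted p = 0.0162). Mrps2 was at 22.7, 20.5 and 21.4 CPM in HIF1a-ko hypoxia, near its R26 hypoxia values and below its normoxia values of 24.7, 25 and 24.9 CPM (-0.21 ± 0.05, adjusted p = 0.0128). Mrps9, which has a bacterial counterpart, was at 30.8, 31.7 and 29.9 CPM in normoxia, 28.6, 28.4 and 26.4 CPM in R26 hypoxia and 25.2, 28.6 and 26.5 CPM in HIF1a-ko hypoxia (-0.20 ± 0.06, adjusted p = 0.0249). The counts of 1 and 2 became 0 and 1 without R26 normoxia 1, R26 normoxia 2 or HIF1a-ko hypoxia 1. The small subunit count was 1 without HIF1a-ko hypoxia 2 and 0 without HIF1a-ko hypoxia 3 or R26 normoxia 3, and the large subunit count was 2 without R26 normoxia 3. Of all genes, 16.5% to 23% fell in this comparison when 1 library was left out.

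Some members stand apart by role or by place. Mrpl12, the stalk protein that also is known to bind the mitochondrial RNA polymerase (ENSMUSG00000039640, chromosome 11, 120484613 to 120489065, plus strand), had 25.9, 27.3 and 25.7 CPM in R26 normoxia, 22.7, 22.3 and 22.5 CPM in R26 hypoxia and 34.1, 33.6 and 37.1 CPM in HIF1a-ko hypoxia. The 3 groups did not overlap, and it was the only gene besides Mrpl16 and Mrps22 called in all 3 comparisons (-0.23 ± 0.05, 0.64 ± 0.05 and 0.41 ± 0.05, edgeR adjusted p = 0.0142, 1.11e-05 and 0.00024). Its exons overlap other genes over 13.1% of their length. Mrps30 and Mrps18a carry small subunit names but sit in the large subunit. Mrps30 was at 12, 11.9 and 24.6 CPM, 11.6, 12.1 and 22.9 CPM and 15.1, 8.95 and 11.6 CPM in the same order of groups, with the deeper library the highest of each group. It was called in no comparison, but with depth class as a term it was called lower in HIF1a-ko hypoxia against both R26 groups (edgeR adjusted p = 0.0102 and 0.00515), and its direction changed with the libraries left out. Mrps18a was at 33.4, 37.3 and 28.4 CPM, 30.8, 28.6 and 24.2 CPM and 30.4, 29.9 and 31.7 CPM and was not called either (-0.25, 0.14 and -0.11), except lower in hypoxia against normoxia with the block, with the depth term and in the shallower libraries (edgeR adjusted p = 0.0112, 0.0156 and 0.0279).

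Mrps18a, Mrps18b and Mrps18c are relatives of the same bacterial protein, and of these Mrps18b and Mrps18c sit in the small subunit. Mrps18b was at 8.72, 7.26 and 8.77 CPM in R26 hypoxia and 12.3, 9.54 and 11.6 CPM in HIF1a-ko hypoxia and rose (0.44 ± 0.11, edgeR adjusted p = 0.0104). Mrps18c was at 11, 11.8 and 6.06 CPM, 8.16, 8.91 and 3.51 CPM and 7.85, 12.6 and 11.5 CPM, where the deeper library was far below the others of its group, and was not called (0.67 ± 0.37 against R26 hypoxia, edgeR adjusted p = 0.172). In the fit with the depth term and in the shallower libraries it was called higher against R26 hypoxia (adjusted p = 0.000118 and 0.000636), and it was called lower in hypoxia against normoxia in both of these fits and with the block (0.00282, 0.00792 and 0.00218). Mrps36, which is known as a component of the 2-oxoglutarate dehydrogenase complex despite its name, was at 12.2, 12.5 and 9.63 CPM, 11.4, 10.5 and 6.3 CPM and 11, 11.6 and 12.2 CPM and was not called. It was called lower in hypoxia against normoxia with the block and the depth term (edgeR adjusted p = 0.0337 and 0.0396), and higher against R26 hypoxia with the depth term (0.0153). Moving Mrps30 and Mrps18a to the large subunit and leaving Mrps36 out could change no count of calls. None of these genes was called in the fit of all 9 libraries with group as the only term.

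Proteins with and without a bacterial counterpart were counted with each gene in the subunit it sits in. Mrps18c was counted with a counterpart. Mrps18a and Mrps18b, though relatives of the same bacterial protein, were counted without one. In HIF1a-ko hypoxia against R26 hypoxia, 20 of 30 large subunit genes with a counterpart and 7 of 21 without one rose, with medians of 0.39 and 0.15. In the small subunit 7 of 16 with a counterpart and 7 of 10 without one rose, with medians of 0.24 and 0.37. The order of the classes was thus opposite in the 2 subunits. In hypoxia against normoxia all 7 large subunit genes that fell had a counterpart (7 of 30 and 0 of 21), and in the small subunit 3 of 16 and 2 of 10 fell. These differences between classes were not tested. Of all genes tested, 22.6% rose in HIF1a-ko hypoxia against R26 hypoxia and 12.7% fell in hypoxia against normoxia.

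Further proteins of the mitochondrial ribosome carry no Mrp symbol. Dap3, a GTP-binding protein of the small subunit, had 59.4, 57.5 and 57.1 CPM in R26 hypoxia and 64.6, 66 and 67.6 CPM in HIF1a-ko hypoxia (0.19 ± 0.05, edgeR adjusted p = 0.0071). Ptcd3 (0.33 ± 0.08) and Aurkaip1 (0.33 ± 0.11) rose too, so 3 of these 5 rose and 0 fell, with 4 and 0 at an unadjusted p under 0.05. Of all genes tested, 22.6% rose and 24.1% fell at the adjusted threshold. Chchd1 (0.58 ± 0.24, adjusted p = 0.079) and Gadd45gip1 (-0.19 ± 0.09, adjusted p = 0.126) were not called. In hypoxia against normoxia none of the 5 was called by edgeR, with 0 higher and 1 lower at an unadjusted p under 0.05, and against normoxia in HIF1a-ko hypoxia Dap3 rose (0.14).

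The genes that assemble this ribosome and modify its RNA moved in both directions. Of 25 tested, 10 rose and 3 fell in HIF1a-ko hypoxia against R26 hypoxia, 1 rose and 4 fell in hypoxia against normoxia, and 5 rose and 5 fell in HIF1a-ko hypoxia against normoxia. Of all genes, in the same order, 22.6% rose and 24.1% fell, 13.1% and 12.7%, and 19.9% and 22.1%. The last counts of 5 were near that background. Mpv17l2, a membrane protein needed for ribosome assembly, had 26.1, 26.1 and 24.1 CPM in R26 normoxia, 18.5, 15.2 and 15.5 CPM in R26 hypoxia and 27.2, 26 and 24.9 CPM in HIF1a-ko hypoxia. It fell in hypoxia (-0.63 ± 0.08, edgeR adjusted p = 0.000575), overlapped its normoxia values with the guide, and led the list against R26 hypoxia (0.67 ± 0.08). Mettl15, a methyltransferase of the small subunit RNA, rose in each step, from 2.73, 2.53 and 3.15 CPM to 4.31, 4.3 and 4.9 CPM and 6.22, 6.06 and 6.27 CPM. Mterf4, which recruits a methyltransferase to the large subunit, was at 16.5, 14.9 and 12.9 CPM in R26 hypoxia and fell to 9.77, 9.26 and 9.1 CPM (-0.64 ± 0.10, adjusted p = 0.000576).

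Of 15 mitochondrial translation factors and RNA-binding partners, 6 rose and 1 fell in HIF1a-ko hypoxia against R26 hypoxia, and 0 rose and 4 fell in hypoxia against normoxia (at an unadjusted p under 0.05, 1 higher and 5 lower). Against normoxia 4 rose and 1 fell. The shares of all genes in these comparisons were 22.6% and 24.1%, 13.1% and 12.7%, and 19.9% and 22.1%. Lrpprc, which stabilises mitochondrial messenger RNAs, fell in hypoxia (-0.45 ± 0.08, edgeR adjusted p = 0.00345) and was higher with the guide (0.71 ± 0.08, adjusted p = 8.1e-05). Gfm1, an elongation factor, was at 29, 30.1 and 29.4 CPM, 25.1, 24.4 and 24.5 CPM and 34.1, 34.2 and 35.2 CPM in the 3 groups, which did not overlap. Mtrf1l, a release factor, was the 1 that fell with the guide (-0.26 ± 0.06).

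Regulators known to act on mitochondrial genes did not move together. Ppargc1b, a coactivator of mitochondrial gene expression, had 3.8, 4.25 and 4.11 CPM in R26 normoxia, 1, 1.05 and 1.15 CPM in R26 hypoxia and 5.75, 4.94 and 3.97 CPM in HIF1a-ko hypoxia. It fell in hypoxia (-1.90 ± 0.17, edgeR adjusted p = 7.87e-05) and was 4.55-fold higher with the guide (2.19 ± 0.17, adjusted p = 5.25e-06). Its relative Ppargc1a was at 2.48, 2.15 and 2.85 CPM in R26 hypoxia and 5.83, 5.81 and 5.88 CPM in HIF1a-ko hypoxia (1.20 ± 0.14). Pprc1, another coactivator of the same family, fell in hypoxia (-0.55 ± 0.09) and rose with the guide (0.37 ± 0.09).

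Myc rose with the guide against both R26 groups, by 0.44 and 0.46 on the log2 scale. Nrf1 was called higher only against normoxia (0.28 ± 0.09, edgeR adjusted p = 0.0287), and its value against R26 hypoxia was 0.18 ± 0.09 (adjusted p = 0.111). Gabpa rose in hypoxia (0.17 ± 0.05), Yy1 fell with the guide (-0.21 ± 0.05), Esrra rose against normoxia (0.29 ± 0.07), and Gabpb1 was called in no comparison. In all, 1 of the 9 rose and 2 fell in hypoxia against normoxia, and 4 rose and 1 fell in each of the comparisons of HIF1a-ko hypoxia. Of all genes, 13.1% rose and 12.7% fell in hypoxia against normoxia. With the guide 22.6% rose and 24.1% fell against R26 hypoxia, and 19.9% and 22.1% against normoxia.

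Cytosolic ribosomal proteins and the nuclear-encoded respiratory chain were counted for comparison. Of 78 cytosolic ribosomal protein genes tested, 0 rose and 0 fell in hypoxia against normoxia by edgeR (0 and 1 at an unadjusted p under 0.05), and 8 rose and 0 fell in HIF1a-ko hypoxia against R26 hypoxia (11 and 0). Their median log2 fold change in the latter was 0.28, with 77 of 78 above 0, and their many pseudogene copies make single counts uncertain. Rps2, a small subunit protein, had the largest rise of the 8 (0.65 ± 0.06). Of 75 respiratory chain and ATP synthase subunits, 0 rose and 8 fell in hypoxia (0 and 13 at an unadjusted p under 0.05), and 33 rose and 1 fell with the guide, with a median of 0.53. Of all genes tested, 13.1% rose and 12.7% fell in hypoxia, and 22.6% rose and 24.1% fell with the guide. The 8 cytosolic genes that rose with the guide and the 8 respiratory chain genes that fell in hypoxia were below these shares. Ndufa4, a subunit of cytochrome c oxidase, had 61.3, 62.2 and 37 CPM in R26 normoxia, 31.5, 28.3 and 13.5 CPM in R26 hypoxia and 78.1, 105 and 102 CPM in HIF1a-ko hypoxia. It fell most in hypoxia (-1.14 ± 0.31) and rose most with the guide (1.98 ± 0.31), while Ndufv3, a subunit of complex I, fell with the guide (-0.49 ± 0.16). In the plot of shares called, every list of genes shows a larger share higher than lower in HIF1a-ko hypoxia against R26 hypoxia. This includes the assembly genes, the translation factors and the cytosolic ribosome, while the background of all genes is near balance. Against R26 normoxia the assembly genes were even, with 5 higher and 5 lower of 25.

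**Figure D4:**
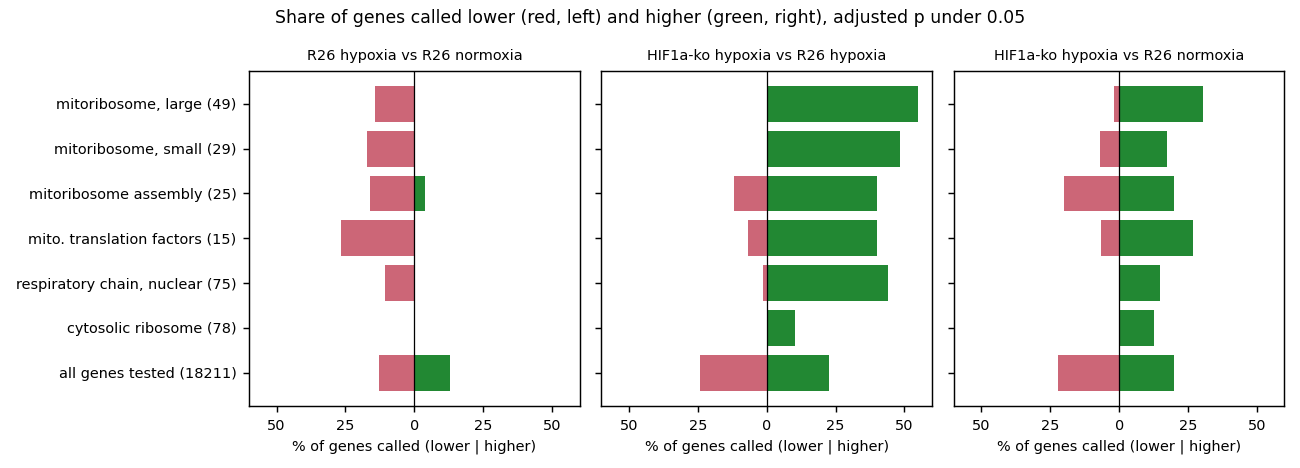
Share of genes called lower (left, red) and higher (right, green) at an adjusted p under 0.05, in percent of the genes tested in each list, for the 3 comparisons. In the middle panel 27 of 49 large and 14 of 29 small subunit genes are higher and none lower, against 22.6% higher and 24.1% lower of all genes.

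The deeper library of each group moved with these genes. In R26 normoxia 67 of 78 members were lower in the deeper library than in the mean of the shallower ones, with a median log2 ratio of -0.21, and in R26 hypoxia 64 of 78 were, with a median of -0.23. In HIF1a-ko hypoxia 51 of 78 were lower, with a median of -0.05. Over all genes tested these medians were -0.00, 0.03 and 0.01. Across the 78 genes the ratio went with transcript length: Spearman's rho was 0.42 in R26 normoxia, 0.49 in R26 hypoxia and 0.21 in HIF1a-ko hypoxia, described with no p because all points share the same libraries. Short transcripts such as Mrps18c (638 bp) and Mrpl42 (666 bp) were lower in the deeper library, and Mrps30 (3319 bp) was higher. Long transcripts went both ways. In both R26 groups Mrpl17 (7300 bp) and Mrps25 (6073 bp) were lower in the deeper library, and Mrpl1 (3556 bp) was higher.

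In the shallower libraries the difference between HIF1a-ko hypoxia and R26 hypoxia went little with length. There the fold changes of HIF1a-ko hypoxia against R26 hypoxia had a rho of 0.04 with length and medians of 0.28 in the 39 shorter and 0.25 in the 39 longer transcripts. With all 9 libraries rho was -0.15 and the medians were 0.41 and 0.27. With depth class as a term they were much the same, with a rho of -0.172 and medians of 0.44 and 0.27. For R26 hypoxia against R26 normoxia rho was -0.125 in the shallower libraries and -3.79e-05 with all 9. The labels do not give the cause of the depth classes, and the part they play in the results was tested only by the fits without the deeper libraries and with depth class as a term.

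**Figure D5:**
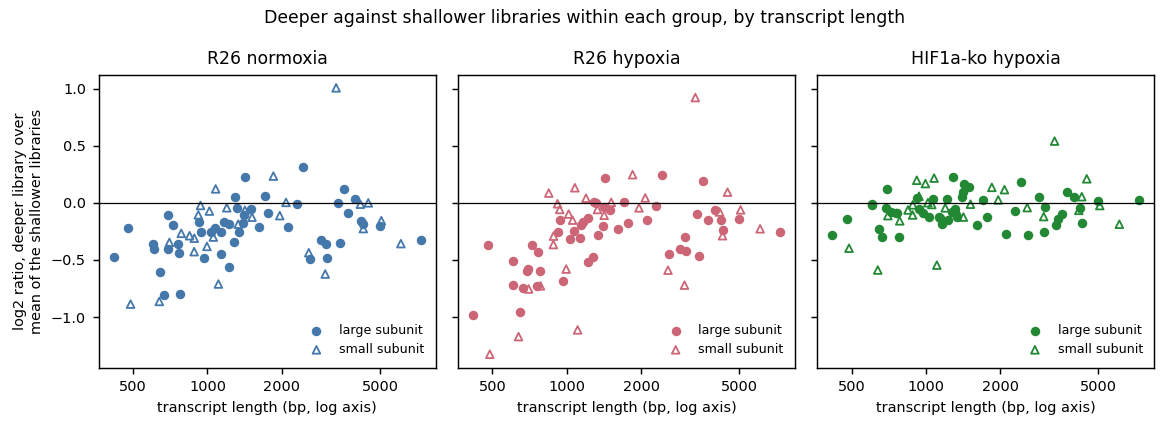
Log2 ratio of the deeper library over the mean of the 2 shallower libraries of the same group, against transcript length in base pairs on a log axis, for each gene of the large (filled circles) and small (open triangles) subunit. In both R26 groups the points farthest below 0 are mostly short transcripts, with medians over all 78 genes of -0.21 and -0.23, and in HIF1a-ko hypoxia the median is -0.05.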

How the data were processed

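The deposited table holds gene counts that, per the submitters' processing notes, the authors made with bcl2fastq 2.17, Trimmomatic, STAR and featureCounts on GRCm38, with DESeq2 also named. The labels' protocols give poly-A selection and a NEBNext Ultra library. The annotation release and the settings for strand and for reads with several matches were not given in the sources used here. Of 49315 gene identifiers 48970 were paired with a GENCODE M21 symbol, and the 345 without a symbol took 0.0559% to 0.0873% of each library's counts.

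Counts of all 9 libraries were fitted with edgeR 4.0.16 (quasi-likelihood test, TMM factors, filterByExpr, group as the only term) in R 4.3.3, and p-values were adjusted by Benjamini and Hochberg over 18211 genes. A gene was called at an adjusted p under 0.05. Fold changes are HIF1a-ko or hypoxia over the R26 group named second, and levels are TMM-scaled CPM. DESeq2 1.42.0, other scalings and filters, fits of 2 groups, a replicate block, depth class as a term, the 6 shallower libraries alone and leaving out each library were the alternatives. The procedure was tested on simulated data. With 3 libraries a group, an exact permutation test of 1 gene cannot go below 0.1, so none was used. No pair of libraries agreed within sampling noise.

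Replicate numbers were checked as pairs by correlating the deviations from the group means over all genes. Between the R26 groups the same-number correlations were 0.48, 0.53 and 0.855, so the numbers pair these libraries by the rule that all be above 0.1, although number 3 is also the deeper library in both groups and libraries 1 and 2 correlated as well across numbers (0.587 and 0.498). They did not pair HIF1a-ko hypoxia with either R26 group.

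Promoter windows are RefSeq's for GRCm38.p6, and 9 of the 78 genes had none. The motif planned for Nrf1 was longer, and its inner 8 letters were searched. Values in every library were given, per subunit and comparison, for the 3 called genes with the highest and the 3 with the lowest log2 fold change, for called genes against the majority, and for Mrpl12, Mrps30, Mrps18a, Mrps18b, Mrps18c and Mrps36. In other lists the called genes at either end were eligible, with all 5 ribosomal proteins without an Mrp symbol and the 9 regulators. The genes, lists and rules were chosen with earlier results of these data known.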

Additional observations from a re-analysis of the deposited data

How the results depend on the processing

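The direction of the median held in both subunits and all 3 comparisons under every alternative run, and the scalings moved the median of all genes by less than 0.1. The largest effects came from the libraries' depth. For R26 hypoxia against R26 normoxia, large subunit genes called higher were 2 with the replicate block in 2 groups, 1 with depth class as a term and 2 in the shallower libraries, and small subunit genes 1 with DESeq2, 1 with that block and 1 with that term. Large subunit genes called lower (7) were 11 with library totals, 3 without a filter, 18 with the block, 18 with the depth term and 14 in the shallower libraries. Small subunit genes called lower (5) were 2 without a filter, 3 with at least 1 CPM, 3 with 2 groups in the fit, 14 with the block, 15 with the depth term and 9 in the shallower libraries. Of all genes, 13.8% fell with library totals, 5.07% without a filter, 15.9% with at least 1 CPM and 10.1% with 2 groups. With the block, the depth term and the shallower libraries 20.1%, 19.9% and 14.6% fell and 22.5%, 19.1% and 15.5% rose. With DESeq2 7.85% rose. For HIF1a-ko hypoxia against R26 hypoxia, large subunit genes called lower were 1 with DESeq2, 1 with the block in all 9 libraries, 3 with the depth term and 3 in the shallower libraries, and 1 small subunit gene was with the depth term. Of all genes, 12.7% fell with DESeq2, 24% with the block in all 9 libraries, 29.5% with the depth term and 25.6% in the shallower libraries. The medians were 0.43 and 0.36 with library totals and 0.28 and 0.20 in the shallower libraries. Against R26 normoxia, large subunit genes called higher (15) were 24 with the depth term, those called lower (1) were 4 with it and 5 in the shallower libraries, small subunit genes called higher (5) were 11 and 8, and those called lower (2) were 1 with library totals, 0 without a filter, 0 with the block and 1 in the shallower libraries. Of all genes, 26.1% rose and 27.5% fell with the depth term, and 23.8% and 22.6% in the shallower libraries. With library totals 19% fell, without a filter 9.97%, and with the block in 2 groups 19.1%. The medians were 0.23 and 0.19 with library totals, and 0.13 for the large subunit in the shallower libraries.

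Leaving out 1 library gave, for hypoxia against normoxia, 0 to 1 large subunit genes higher and 2 to 9 lower (median -0.21 to -0.06) and 2 to 4 small subunit genes lower (median -0.25 to -0.11). For HIF1a-ko hypoxia against R26 hypoxia it gave 23 to 28 large subunit genes higher and 0 to 2 lower (median 0.25 to 0.40), and 10 to 14 small subunit genes higher (median 0.18 to 0.35). Against R26 normoxia it gave 9 to 18 higher and 0 to 2 lower (median 0.17 to 0.23), and 4 to 7 higher and 0 to 2 lower (median 0.12 to 0.18). In these fits 9.37% to 13.1% of all genes rose and 8.58% to 11.5% fell in hypoxia against normoxia. For HIF1a-ko hypoxia 19.5% to 23.4% rose and 19.6% to 23.2% fell against R26 hypoxia. Against R26 normoxia 16.7% to 21% rose and 16.5% to 23% fell. With the replicate block in a fit of 2 groups, 11 of the 12 calls of hypoxia against normoxia were kept and 24 gained. For the HIF1a-ko comparisons, whose numbers do not pair, 31 of 41 and 14 of 23 calls were kept. The block with all 9 libraries kept 11, 40 and 21.

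Log2 fold changes of some genes that were not called in the comparison turned sign in some alternatives. In hypoxia against normoxia, leaving out 1 library gave -0.486 to 0.416 for Mrps30, -0.357 to 0.0996 for Chchd1, -0.114 to 0.016 for Gabpb1 and -0.0609 to 0.102 for Myc. Mrps30 was 0.00252 and Gabpb1 0.0164 in the shallower libraries, and Myc -0.00296 with library totals. In HIF1a-ko hypoxia against R26 hypoxia it gave -0.61 to 0.0189 for Mrps30 and -0.0359 to 0.0439 for Gabpb1. Gabpa was 0.028 with library totals and 0.0145 in the shallower libraries, and Gabpb1 -0.0128 there, -0.00123 with 2 groups and -0.000389 with the block. Against R26 normoxia it gave -0.66 to 0.0302 for Mrps30, -0.095 to 0.373 for Mrps18c, -0.0749 to 0.0917 for Mrps36, -0.0901 to 0.0349 for Gadd45gip1 and -0.109 to 0.0346 for Gabpb1. In the shallower libraries Mrps36 was -0.0386, Aurkaip1 -0.0196 and Gabpb1 0.00355, and Gadd45gip1 was 0.0108 with library totals. The cause of these turns was not tested.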
